A study of Mus musculus and Homo sapiens with 14 samples.

Results

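The hypoxia and glycolysis genes described here are 34 mouse genes that were listed by symbol, of 35288 gene identifiers in each of the deposited mouse tables. They were kept in 2 groups, 14 glycolytic enzymes and 20 other genes that are known as targets of hypoxia-inducible factor (HIF). All 34 were found, Ca9 under its other symbol Car9. Aldoa has 2 identifiers in the tables, of which the main locus was used. The mouse cell lines MB1 and Oli-neu were followed across 10 libraries, in 5 culture conditions with 2 biological replicates each according to the labels: MB1 with Oli-neu, MB1 alone, Oli-neu with MB1, Oli-neu with D341 and Oli-neu alone. MB1 is a line of Sonic hedgehog (SHH) medulloblastoma cells established from tumours of Atoh1-cre:SmoM2 mice at postnatal day 12. In these mice an activated form of the hedgehog receptor component Smoothened is switched on by Cre under the control of Atoh1, a gene of cerebellar granule cell precursors. Oli-neu, also a mouse line, represents precursors of the oligodendrocytes that make myelin. D341, the other partner of Oli-neu, is a human line of Group 3 medulloblastoma, and its own libraries were not analysed here. Every culture, alone or with a partner, was kept in DMEM/F-12 with B-27, N-2, EGF and bFGF at 20 ng/mL and antibiotics. Co-cultures were set up with inserts of 30 mm and a membrane with pores of 0.4 µm. The labels give the same gas setting for all cultures and name no low-oxygen condition.

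Glycolysis is the chain of enzymes that splits glucose to pyruvate in the cytosol and yields ATP without oxygen, and lactate dehydrogenase then turns pyruvate into lactate. HIF is a transcription factor whose alpha subunit is marked for destruction by prolyl hydroxylases when oxygen is present. When oxygen is scarce the subunit persists, pairs with ARNT and binds DNA at the letters ACGTG or GCGTG, and it raises glucose import, glycolytic enzymes, vessel growth factors and the export of acid. Medulloblastoma cells are known for high glycolysis under hedgehog signalling, in which hexokinase 2 takes part, and oligodendrocyte precursors are known to respond to HIF.

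The sequences that HIF is known to bind were looked up first, because HIF targets are known for them. The RefSeq promoter table (build GRCm38.p6) held 46 promoters for 31 of the 34 genes, and the entries for Slc2a3, Ndrg1 and Bnip3l were not found. The letters ACGTG and GCGTG were searched on both strands, where they read CACGT and CACGC on the reverse, in the 250 bases before each start. CACGTG holds both ACGTG and CACGT and was counted as both. At least 1 match was found in 36 of the 46 promoters (78.3%), against 38.6% of the 32851 promoters of all genes. The share was 77.3% for the glycolytic enzymes and 79.2% for the other HIF targets. For ACGTG and its reverse alone the share was 45.7% of the members' promoters, against 16.6% of all. A match of letters is no evidence that the factor binds there in these cells. The members were listed as HIF targets, which are known for these letters, so their higher share is no test. A gene with more than 1 promoter was counted more than once. The stretches below span all matches of 4 of the genes with the smallest p-values in MB1 cells, so that their letters can be read beside the values further on. Among the members these 4 rank 1, 3, 4 and 5 by p in limma. Ankrd37 (rank 2), which held 4 matches, and Slc16a3 (rank 6) are not printed. The choice of genes therefore does not relate matches to fold changes. They are written 5′ to 3′ on the gene's strand, with the matches in capitals. That of Hk2 lies at chr6:82774487-82774695 (minus strand), that of Egln3 at chr12:54204084-54204118 (minus), that of Pdk1 at chr2:71873131-71873165 (plus) and that of Bnip3 at chr7:138909522-138909638 (minus).
Hk2: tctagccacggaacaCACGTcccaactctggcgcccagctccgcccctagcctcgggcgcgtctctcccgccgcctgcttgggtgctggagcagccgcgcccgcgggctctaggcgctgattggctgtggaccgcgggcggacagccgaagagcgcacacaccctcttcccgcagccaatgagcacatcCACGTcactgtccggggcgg
Egln3: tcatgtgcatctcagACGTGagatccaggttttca
Pdk1: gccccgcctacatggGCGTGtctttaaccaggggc
Bnip3: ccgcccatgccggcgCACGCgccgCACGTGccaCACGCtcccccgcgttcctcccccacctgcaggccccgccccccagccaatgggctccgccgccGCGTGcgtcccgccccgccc
Bnip3 held 5 matches, of which 2 overlap in CACGTG. Hk2 held 2, both of them CACGT. Egln3 and Pdk1 held 1 each, ACGTG in Egln3 and GCGTG in Pdk1.

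Expression is given in TPM, a transcript abundance per length that sums to 1000000 in every library, so a TPM value is a share and carries no depth. The depth of the libraries is unknown, and no counting interval can be given. Replicate libraries had a Pearson r of 0.944 to 0.972 over genes, which are not independent of each other. All 8 markers of the oligodendrocyte lineage reached 1 TPM in Oli-neu cells, while 7 did in MB1 alone and 5 in MB1 with Oli-neu. Their sum was higher in MB1 alone, at 939.7 to 1099 TPM, than in Oli-neu alone, at 612 to 685 TPM. A high sum of this list was therefore not particular to Oli-neu. In MB1 cells 4 or 5 of 9 markers of cerebellar granule cells and hedgehog signalling reached 1 TPM, and Atoh1, Barhl1, Gli1 and Gli2 lay below 1 TPM in both MB1 conditions. In MB1 alone these 9 summed to 133 to 149.7 TPM, and 6 astrocyte markers summed to 366 to 409.9 TPM. In Oli-neu alone the sums of these 2 lists were 12.7 to 16.9 and 34.5 to 42.1 TPM. Slc1a3 made up most of the astrocyte sums, with means of 343 TPM in MB1 alone and 34.3 TPM in Oli-neu alone. The list of 5 microglia markers summed to less than 1 TPM in every group. Pseudogenes took 25.2% to 26.8% of TPM in MB1 libraries and 36.0% to 38.2% in Oli-neu libraries. Where the lines are compared below, the values come from tables scaled apart and are a description with no test.

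The glycolytic enzymes spanned a wide range of levels in both lines. Together the 14 enzymes took 1.64% and 1.601% of TPM in MB1 with Oli-neu, 1.78% and 2.15% in MB1 alone, 2.07% and 2.03% in Oli-neu with MB1, 2.08% and 2.16% in Oli-neu with D341, and 1.78% and 1.97% in Oli-neu alone. With the TPM of processed copies of these genes added, which are described further on, the shares were 1.96% to 2.68% in MB1 libraries and 2.699% to 3.59% in Oli-neu libraries, so that the lines overlapped without copies and not with them. The first step of glycolysis, the capture of glucose by hexokinase, was carried by low transcripts in both lines. Hk1, the hexokinase of most brain cells, had 50.4 to 67.5 TPM in the 4 MB1 libraries and 34.3 to 45.7 TPM in the 6 Oli-neu libraries. Hk2, the isozyme that HIF induces, had 10.7 to 31.04 TPM in MB1 and 44.4 to 67.4 TPM in Oli-neu. The lines thus did not overlap for either isozyme, and Hk1 was the higher isozyme in all MB1 libraries while Hk2 was the higher in all Oli-neu libraries. The isomerase Gpi1 had 2803 to 3321 TPM in MB1 and 2206 to 3105 TPM in Oli-neu, with overlap. The phosphofructokinases, which commit sugar to glycolysis, were again low. Pfkl had 60.5 to 97.96 TPM in MB1 and 67.5 to 88.1 TPM in Oli-neu, with overlap. Pfkp had 25.4 to 35.5 TPM in MB1 and 59.1 to 71.9 TPM in Oli-neu, with every MB1 library below every Oli-neu library.

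Both aldolases, which split the sugar in the middle of the chain, lay below the Oli-neu range in every MB1 library. Aldoa had 1220.4 to 2040.0 TPM in MB1 and 2455 to 2749 TPM in Oli-neu. Aldoc, the aldolase of the brain, had 244 to 309.7 TPM in MB1 and 732 to 997 TPM in Oli-neu. Among the enzymes of the later steps, Gapdh, whose reads may be split with processed copies described further on, was the most abundant member in both lines, with 4420.2 to 6409 TPM in MB1 and 5971 to 10199 TPM in Oli-neu. Enolase 1, Eno1, had 2485 to 3992 TPM in MB1 and 844 to 1252 TPM in Oli-neu. Its mean was 3.18 times as high in MB1 alone as in Oli-neu alone, but 1.42 times as high with processed copies summed, so that this ratio depends on how reads were assigned. For Aldoc, which had no copies, the ratio of the means was 0.345. The lactate dehydrogenase subunit Ldha had 867 to 1296 TPM in MB1 and 638 to 852 TPM in Oli-neu, with the MB1 libraries above. The other 4 later enzymes overlapped between the lines. Tpi1 had 1081 to 1290.1 TPM in MB1 and 808 to 1448 TPM in Oli-neu. Pgk1 had 504 to 999.9 TPM in MB1 and 664 to 927 TPM in Oli-neu. Pgam1 had 626 to 990.4 TPM in MB1 and 566 to 647 TPM in Oli-neu. The pyruvate kinase gene Pkm, which makes the last ATP of the chain, had 715 to 932 TPM in MB1 and 888 to 1154 TPM in Oli-neu.

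**Figure D1:**
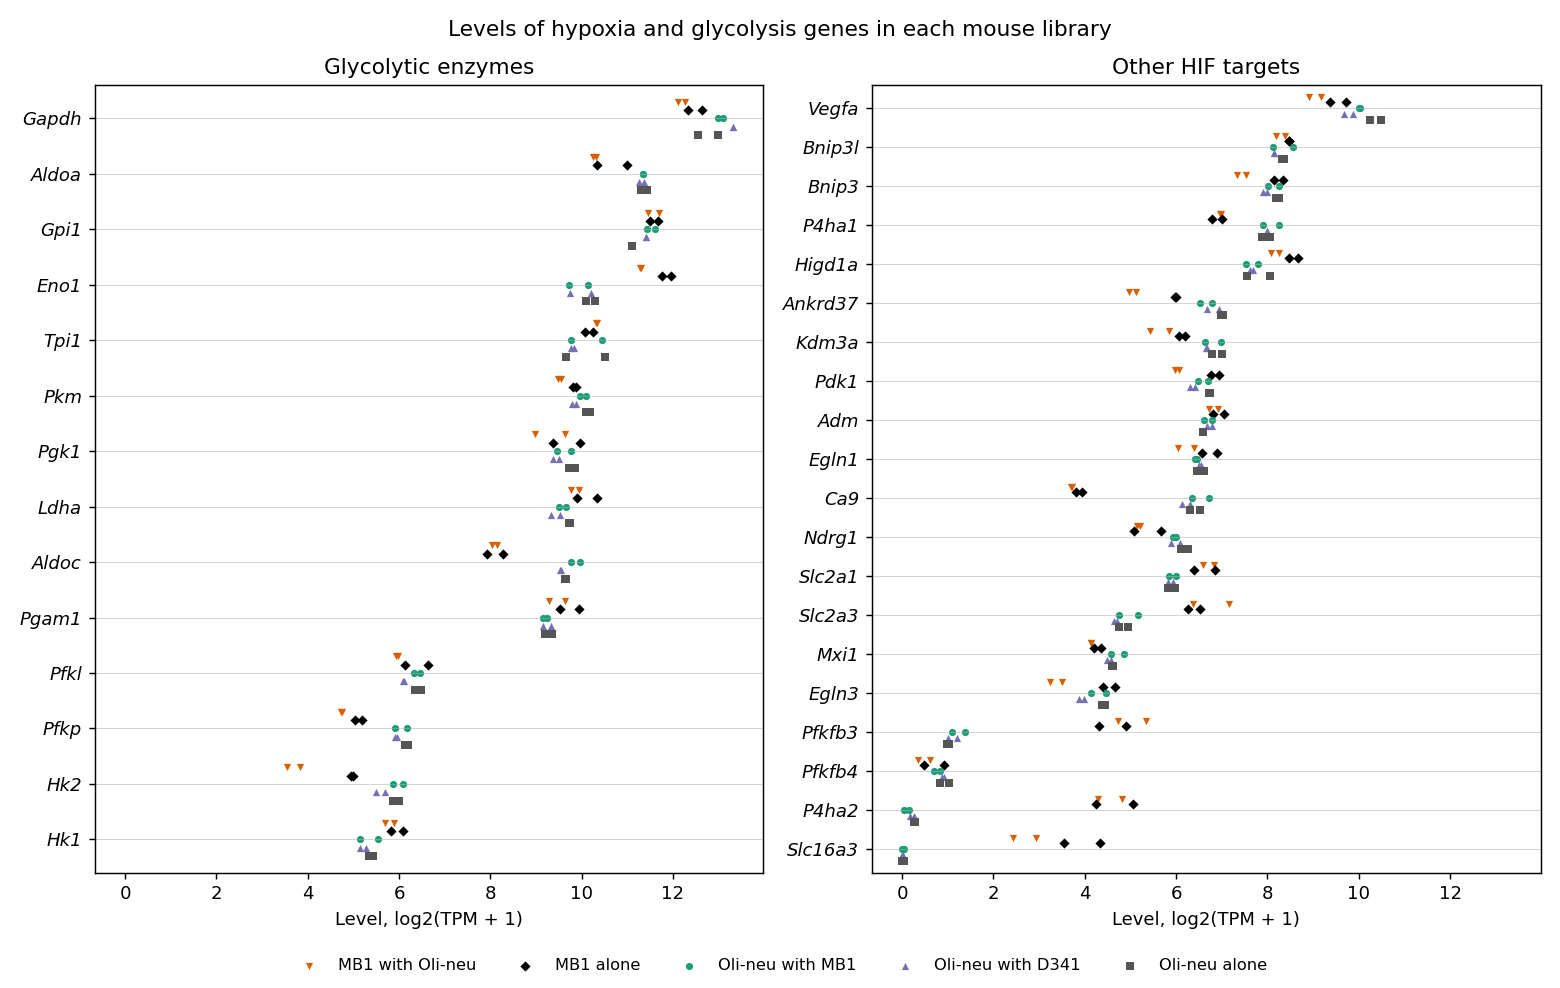
Levels of the 34 genes in the 10 mouse libraries on a log2(TPM + 1) axis, with the glycolytic enzymes on the left and the other HIF targets on the right. Each point is 1 library, genes are ordered by their mean in Oli-neu alone, and Slc16a3, P4ha2 and Pfkfb3 stand apart with MB1 points far to the right of the Oli-neu points, which lie at 0 to 1.604 TPM.

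Among the other HIF targets, Slc16a3, P4ha2 and Pfkfb3 lay at or below 1.604 TPM in all Oli-neu libraries. The monocarboxylate carrier Slc16a3, which exports lactate, had 6.66 and 4.38 TPM in MB1 with Oli-neu and 10.6 and 19.1 TPM in MB1 alone. In Oli-neu cells Slc16a3 was listed at 0 to 0.03495 TPM over all 6 libraries. The collagen prolyl hydroxylase subunit P4ha2 had 18.6 and 27.2 TPM in MB1 with Oli-neu and 17.9 and 32.5 TPM in MB1 alone, against 0.0324 to 0.213 TPM in Oli-neu. Its paralogue P4ha1 had the opposite order, with 109 to 127 TPM in MB1 and 236 to 303 TPM in Oli-neu. Pfkfb3, which makes the activator of phosphofructokinase, had 18.8 to 39.2 TPM in MB1 and 0.977 to 1.604 TPM in Oli-neu, a ratio of 23.8 between the means of the lines grown alone. Its paralogue Pfkfb4 stayed at or below 1.02 TPM in every library and was tested in neither line.

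Of the glucose carriers, Slc2a1 (GLUT1) had 83.1 to 115 TPM in MB1 and 55.6 to 62.5 TPM in Oli-neu, and Slc2a3 (GLUT3), the carrier of neurons, had 76.1 to 143 TPM in MB1 and 23.8 to 34.8 TPM in Oli-neu. Every MB1 library lay above every Oli-neu library for both. The mitochondrial gene Higd1a was likewise higher in MB1, with 270.4 to 407 TPM against 183 to 266 TPM in Oli-neu. With its processed copies summed, which are described further on, Higd1a had 902 to 1339 TPM in MB1 and 700 to 965 TPM in Oli-neu. The lines then overlapped, so this order depends on how reads were assigned. Carbonic anhydrase 9, an enzyme at the cell surface that handles exported acid, was lower in MB1, where Ca9 had 12.04 to 14.4 TPM against 68.5 to 105 TPM in Oli-neu. The ratio of its means was 0.162 between MB1 alone and Oli-neu alone. Ndrg1, Mxi1, Kdm3a and Ankrd37 likewise lay lower in all 4 MB1 libraries than in all 6 Oli-neu libraries. Ndrg1, a gene that myelinating Schwann cells need, had 32.7 to 49.6 TPM in MB1 and 57.9 to 75.2 TPM in Oli-neu. Mxi1, an antagonist of Myc, had 16.5 to 19.6 TPM in MB1 and 21.6 to 28.1 TPM in Oli-neu. The histone demethylase gene Kdm3a had 41.8 to 72.1 TPM in MB1 and 97.98 to 128 TPM in Oli-neu. The ankyrin repeat gene Ankrd37 had 30.3 to 62.9 TPM in MB1 and 91.6 to 129.9 TPM in Oli-neu.

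The libraries of the lines overlapped for the secreted factors, the prolyl hydroxylases, Pdk1, Bnip3 and Bnip3l. Vegfa, the growth factor of blood vessels, was the most abundant of the other HIF targets, with 478 to 842 TPM in MB1 and 816 to 1441 TPM in Oli-neu. The vasodilator gene Adm had 104 to 131 TPM in MB1 and 95.6 to 109.5 TPM in Oli-neu. The prolyl hydroxylases mark HIF for destruction and are themselves HIF targets. Egln1, the main oxygen sensor, had 64.7 to 118 TPM in MB1 and 84.6 to 97.1 TPM in Oli-neu, and the inducible Egln3 had 8.46 to 24.3 TPM in MB1 and 13.7 to 21.1 TPM in Oli-neu. Pdk1, which shuts pyruvate out of the citrate cycle, had 62.2 to 121 TPM in MB1 and 77.7 to 106 TPM in Oli-neu. The mitophagy genes Bnip3 and Bnip3l had 161 to 321 and 290.1 to 357 TPM in MB1. In Oli-neu they had 239 to 305 and 278 to 374 TPM. Over all 34 members, every MB1 library lay above every Oli-neu library for 9 genes, 3 enzymes and 6 other targets. It lay below for 10 genes, 4 enzymes and 6 other targets, and 15 genes overlapped. Among the 13505 genes tested in either line, 38.6% lay above and 14.1% below. These counts leave out processed copies. With copies summed, Eno1 and Higd1a overlapped between the lines, and Gapdh lay below in every MB1 library. Pgam1 then lay above, with 779 to 1168 TPM in MB1 and 566 to 670 TPM in Oli-neu.

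**Figure D2:**
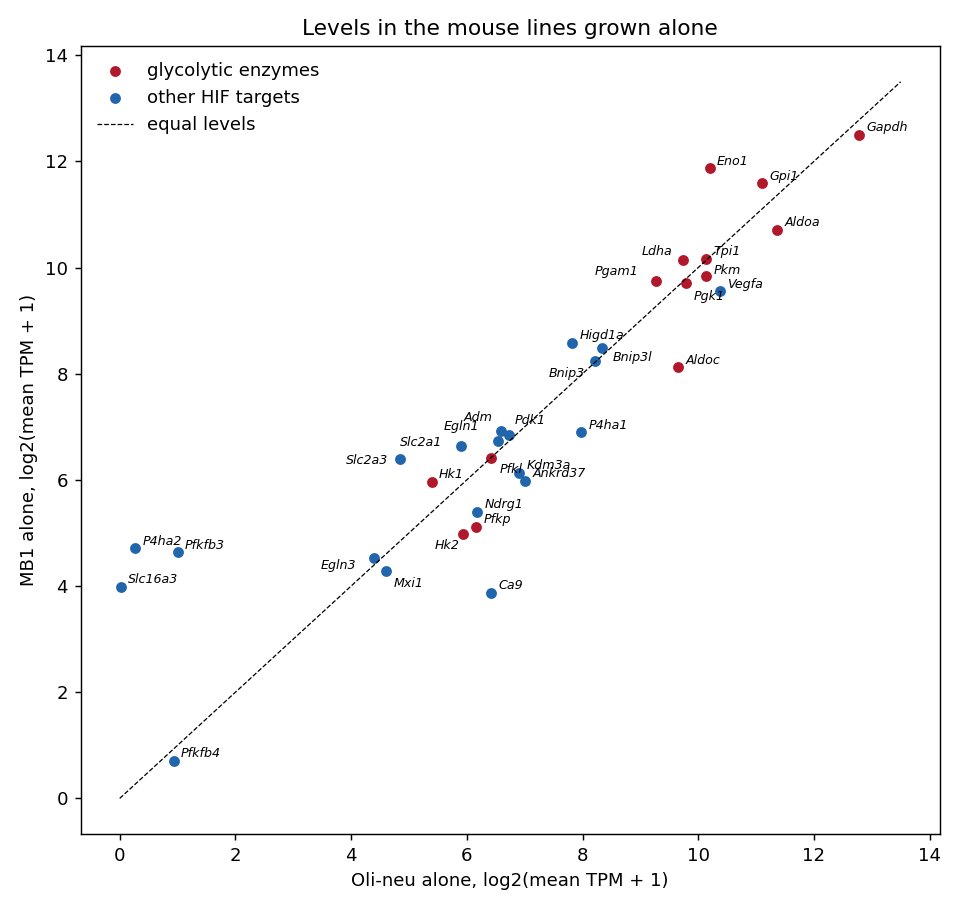
Mean level of each member in MB1 alone (vertical axis) against Oli-neu alone (horizontal axis), both as log2(mean TPM + 1) over 2 libraries, with enzymes in red and other HIF targets in blue. The dashed line marks equal levels: Slc16a3, P4ha2 and Pfkfb3 lie far above it and Ca9 and Aldoc below it.

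In MB1 cells grown with Oli-neu, several HIF targets were lower in both libraries than in both libraries of MB1 alone, but no member passed the test. Tests used limma on log2(TPM + 1) with Benjamini-Hochberg adjustment over the 12407 genes tested and a threshold of 0.05, and a fold change is on that scale, which understates changes of low genes. None of the 33 members tested passed, and 0.0% of all genes tested did. The fold change was negative for 28 of the 33, against 70.9% of all genes tested. At an unadjusted p under 0.05, 7 of the 33 members were lower and 0 higher, against 12.6% and 3.02% of all genes tested. The 7 were Hk2, Ankrd37, Egln3, Pdk1, Bnip3, Slc16a3 and Eno1. Both libraries with Oli-neu lay below both libraries of MB1 alone for 19 of the 33, against 41.5% of all genes, and above for 1 (Tpi1), against 10.9%. The 19 were Hk2, Pfkl, Pfkp, Aldoa, Gapdh, Eno1 and Pkm among the enzymes and Slc16a3, Pdk1, Vegfa, Ca9, Egln1, Egln3, Bnip3, Bnip3l, Higd1a, Mxi1, Kdm3a and Ankrd37 among the other targets. The median log2 fold change was -0.31 for the 14 enzymes and -0.20 for the 19 other targets tested, against -0.17 for all genes tested. From libraries numbered 1 alone the medians were -0.12 and -0.21, and from those numbered 2 alone they were -0.56 and -0.25. In bulk RNA, fewer cells of a type and less RNA per cell cannot be told apart.

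Hexokinase 2 was the member with the smallest p-value. Hk2 (chr6:82725025-82774454, minus strand, GRCm38) had 13.2 and 10.7 TPM in MB1 with Oli-neu and 31.04 and 29.9 TPM in MB1 alone. Both co-culture libraries lay far below both libraries grown alone, which differed little from each other. The means were 11.95 ± 1.77 TPM with Oli-neu and 30.5 ± 0.831 TPM alone (SD, n = 2 each), and the log2 fold change was -1.29 (SE 0.17, adjusted p = 0.249) in limma. Hk1, the other hexokinase, had 50.4 and 58.1 TPM with Oli-neu and 55.7 and 67.5 TPM alone, and its groups overlapped.

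The oxygen sensor Egln3 (chr12:54178981-54203860, minus strand) had 10.3 and 8.46 TPM in MB1 with Oli-neu and 20.1 and 24.3 TPM in MB1 alone. The groups did not overlap, and the log2 fold change was -1.16 (SE 0.18, adjusted p = 0.259). Ankrd37 (chr8:45996902-46005707, minus strand) had 30.3 and 33.6 TPM with Oli-neu and 62.9 and 61.5 TPM alone, a log2 fold change of -0.94 (SE 0.15, adjusted p = 0.254). Both libraries with Oli-neu again lay below both grown alone. The prolyl hydroxylase Egln1 had 82.7 and 64.7 TPM with Oli-neu and 93.5 and 118 TPM alone, again with no overlap.

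Mitochondrial members lay in the same direction. Pdk1 (chr2:71873224-71903858, plus strand) had 66.3 and 62.2 TPM in MB1 with Oli-neu and 108 and 121 TPM in MB1 alone, and Bnip3 (chr7:138890836-138909519, minus strand) had 183 and 161 TPM with Oli-neu and 280.5 and 321 TPM alone. Neither gene's groups overlapped, and the promoters of both are printed above. Their log2 fold changes were -0.82 (SE 0.15, adjusted p = 0.282) and -0.80 (SE 0.17, adjusted p = 0.282). Bnip3l had 290.1 and 332 TPM with Oli-neu and 357 and 356 TPM alone, and Higd1a had 306 and 270.4 TPM with Oli-neu and 355 and 407 TPM alone. The co-culture libraries lay below for both, by smaller margins.

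The lactate exporter Slc16a3 (chr11:120948480-120960868, plus strand) had 6.66 and 4.38 TPM with Oli-neu and 10.6 and 19.1 TPM alone, without overlap but with a wide gap between the libraries grown alone. Its log2 fold change was -1.25 (SE 0.33, adjusted p = 0.282). Leaving out any 1 of the 4 libraries kept all 6 fold changes negative, with that of Hk2 between -1.43 and -1.15 and that of Slc16a3 between -1.65 and -0.86. Over all alternatives run, the adjusted p of these 6 genes lay between 0.0928 and 0.699.

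**Figure D3:**
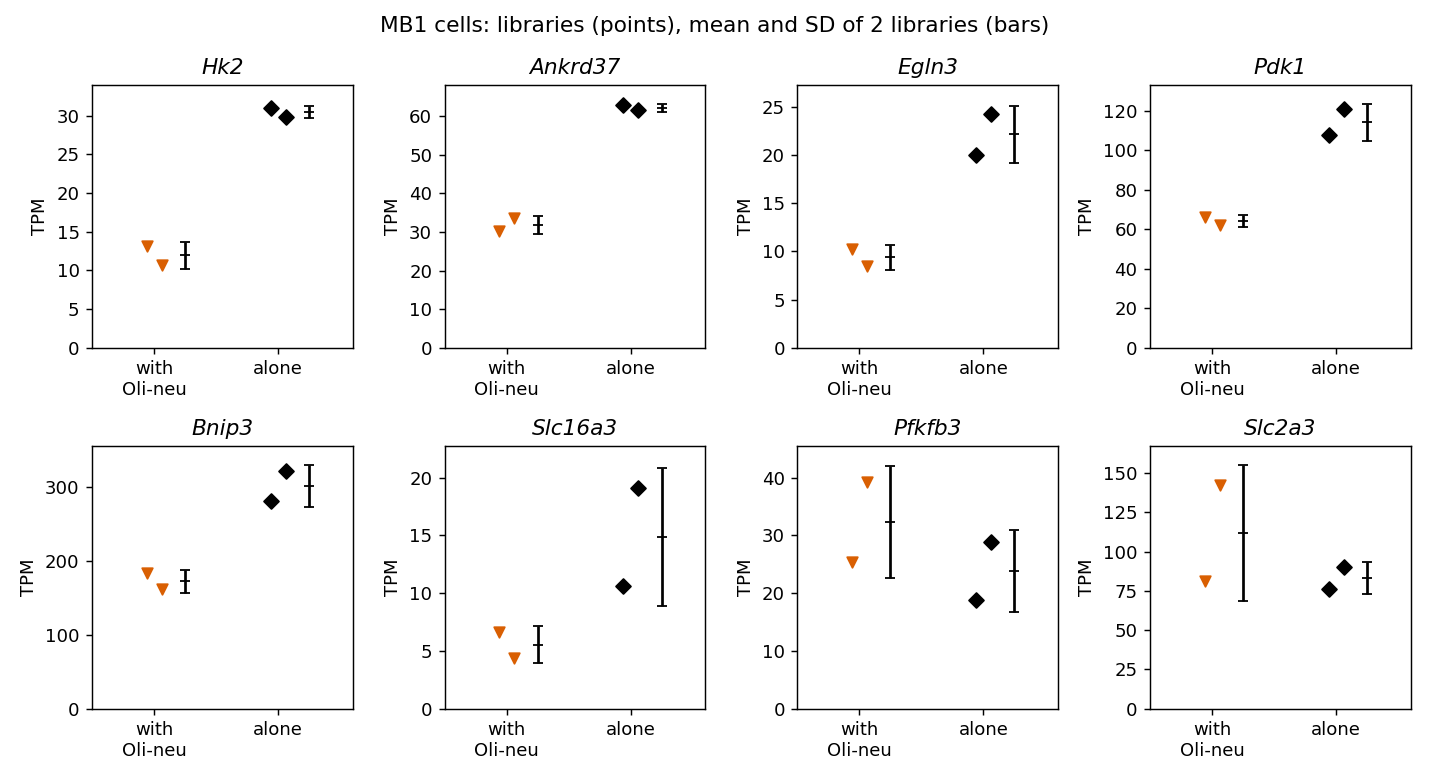
TPM of 8 members in MB1 with Oli-neu (orange) and MB1 alone (black), with a point for each library and a bar for the mean and SD of 2 libraries. The first 6 genes, the members with the smallest p-values, have both co-culture points below both points of MB1 alone, while Pfkfb3 and Slc2a3 do not separate.

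Members with other values were found in each role. Among the enzymes, Eno1 had 2485 and 2527 TPM in MB1 with Oli-neu and 3482 and 3992 TPM in MB1 alone, with no overlap, and Tpi1 had 1290.1 and 1277 TPM with Oli-neu and 1212 and 1081 TPM alone, above in both. Gapdh had 4902 and 4420.2 TPM with Oli-neu and 5137 and 6409 TPM alone. Aldoc and Gpi1 were close between the groups, with means of 273 ± 13.7 and 3062 ± 366 TPM with Oli-neu and 277 ± 46.3 and 3079 ± 271 TPM alone (SD, n = 2 each). The glucose carriers and Pfkfb3 had another order. Slc2a1 had 94.8 and 112 TPM with Oli-neu and 83.1 and 115 TPM alone, and Slc2a3 had 81.1 and 143 TPM with Oli-neu and 76.1 and 90.6 TPM alone. Pfkfb3 had 25.4 and 39.2 TPM with Oli-neu and 18.8 and 28.9 TPM alone. The groups overlapped for all 3 genes, and the group mean was higher with Oli-neu in each. Vegfa had 478 and 578 TPM with Oli-neu and 658 and 842 TPM alone, and Adm had 104 and 119.8 TPM with Oli-neu and 111 and 131 TPM alone. The libraries of Vegfa did not overlap, and those of Adm did. The demethylase gene Kdm3a had 41.8 and 56.8 TPM with Oli-neu and 72.1 and 65.9 TPM alone, without overlap. The collagen hydroxylase subunits P4ha1 and P4ha2 had 126 and 125 and 18.6 and 27.2 TPM with Oli-neu and 109 and 127 and 17.9 and 32.5 TPM alone, and both overlapped.

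Other values differed between the same libraries. With the columns scaled by median ratios, which moved the median of all genes tested to -0.0042, the median was -0.12 for the enzymes and -0.01 for the other HIF targets. Under that scaling 838 genes were higher and 579 lower at an unadjusted p under 0.05, against 375 higher and 1569 lower with TPM as deposited. The fold changes of Hk2 and Egln3 were then -1.11 and -0.98. Of the members, 6 were lower and 0 higher at an unadjusted p under 0.05, without Eno1. Markers of other cells differed as well. The 8 oligodendrocyte markers summed to 635 to 764 TPM in MB1 with Oli-neu and to 939.7 to 1099 TPM in MB1 alone, with Sox10 below 1 TPM in both conditions and Pdgfra and Gpr17 below 1 TPM with Oli-neu. Olig1 and Olig2 made up most of these sums, with means of 515 and 153 TPM with Oli-neu and 744 and 237 TPM alone, while Cspg4 and Mbp had 21.5 and 2.92 TPM with Oli-neu and 19.3 and 2.65 TPM alone. The 6 astrocyte markers summed to 476 to 479 TPM with Oli-neu and to 366 to 409.9 TPM alone, with Aqp4 below 1 TPM in both. Slc1a3 made up most of these sums, with means of 412 TPM with Oli-neu and 343 TPM alone, while Gfap had 7.76 and 3.42 TPM. The part of these markers in the values of the members was not tested.

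In Oli-neu cells grown with MB1 the members showed little order. In the fit of all 6 Oli-neu libraries, 31 of the 34 members were among the 12280 genes tested, without Slc16a3, P4ha2 and Pfkfb4, and none passed in limma, where 0.0% of all genes did. The fold change was negative for 18 of the 31, against 62.6% of all genes. At an unadjusted p under 0.05, 1 member was higher and 0 lower, against 1.43% and 4.65% of all genes. Both co-culture libraries lay above both libraries of Oli-neu alone for 4 members and below for 7, against 10.1% and 24.0% of all genes. The median log2 fold change was -0.03 for the enzymes and -0.08 for the other targets, against -0.06 for all genes. By library number the median of the other targets was 0.19 for number 1 and -0.19 for number 2. With median-ratio scaling the median of the enzymes was 0.04, so its sign depended on the scaling. Under that scaling 357 genes were higher and 351 lower at an unadjusted p under 0.05, against 176 and 571 as deposited, and Gpi1 was still the 1 member. With the replicate number as a block, 1 member was higher (Gpi1) and 2 lower (Vegfa and Ankrd37), against 2.74% and 7.89% of all genes. Without a library the median of the other targets lay between -0.20 and 0.06 and that of the enzymes between -0.09 and 0.0018, so their signs also depended on single libraries.

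The member with the smallest p-value was the isomerase Gpi1 (chr7:34201330-34230336, minus strand), with 3105 and 2749 TPM in Oli-neu with MB1 and 2206 and 2215 TPM in Oli-neu alone. Both co-culture libraries lay above, and the log2 fold change was 0.40 (SE 0.13, adjusted p = 0.783). Aldoc had 997 and 875 TPM with MB1 and 812 and 795 TPM alone, a log2 fold change of 0.22 (SE 0.13, adjusted p = 0.876). Gapdh had 8104 and 8823 TPM with MB1 and 5971 and 8148 TPM alone, with overlap and a log2 fold change of 0.28 (SE 0.19, adjusted p = 0.904). On the lower side, Vegfa (chr17:46016993-46032369, minus strand) had 1025 and 1045 TPM with MB1 and 1212 and 1441 TPM alone, a log2 fold change of -0.35 (SE 0.15, adjusted p = 0.83). Ankrd37 had 110.1 and 91.6 TPM with MB1 and 126 and 129.9 TPM alone, a log2 fold change of -0.35 (SE 0.16, adjusted p = 0.836). Neither gene's groups overlapped. Ndrg1 had 62.8 and 60.1 TPM with MB1 and 67.8 and 75.2 TPM alone, a log2 fold change of -0.21 (SE 0.13, adjusted p = 0.876).

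In Oli-neu cells grown with D341 more members lay low, as did more genes in general. None of the 31 members passed, again with 0.0% of all genes called. The fold change was negative for 26 of the 31, against 75.8% of all genes. At an unadjusted p under 0.05, 4 members were lower and 1 higher, against 12.1% and 1.61% of all genes. Vegfa, Egln3, Pdk1 and Pfkl were the lower ones and Gapdh the higher. Both libraries with D341 lay below both libraries of Oli-neu alone for 19 members and above for 3, against 44.0% and 7.12% of all genes. The median was -0.23 for the enzymes and -0.18 for the other targets, against -0.16 for all genes tested. With median-ratio scaling, under which 608 genes were higher and 445 lower at an unadjusted p under 0.05 against 198 and 1486 as deposited, the medians were -0.04 and -0.0047, and 3 members were higher (Gpi1, Gapdh and Adm) and 0 lower. With the replicate block 6 members were lower, Hk2 and Pkm added, and 2 higher (Gapdh and Gpi1), against 18.0% and 2.86% of all genes. This comparison and the one with MB1 share the libraries of Oli-neu alone, so their values are not independent of each other.

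Vegfa had 816 and 932 TPM in Oli-neu with D341 and 1212 and 1441 TPM in Oli-neu alone. It was lower in both co-culture libraries, with a log2 fold change of -0.60 (SE 0.15, adjusted p = 0.32), and in Oli-neu with MB1 it lay between the 2 groups. Egln3 had 14.9 and 13.7 TPM with D341 and 20.6 and 19.7 TPM alone, a log2 fold change of -0.47 (SE 0.14, adjusted p = 0.328). Pdk1 had 84.4 and 77.7 TPM with D341 and 105 and 106 TPM alone, a log2 fold change of -0.38 (SE 0.13, adjusted p = 0.348). The groups did not overlap for these genes, and both had lower values in the co-culture, as they did in MB1 with Oli-neu. Among the enzymes, Gapdh had 10146 and 10199 TPM with D341 and 5971 and 8148 TPM alone, higher in both and with a log2 fold change of 0.54 (SE 0.19, adjusted p = 0.354). Pfkl had 67.5 and 68.4 TPM with D341 and 88.1 and 81.04 TPM alone, a log2 fold change of -0.31 (SE 0.12, adjusted p = 0.361). Pkm had 888 and 936 TPM with D341 and 1154 and 1097 TPM alone, a log2 fold change of -0.30 (SE 0.13, adjusted p = 0.382). Both enzymes lay below without overlap. Gpi1 and Adm were the other members with both libraries above, with 2711 and 2725 and 109 and 101 TPM with D341 and 2206 and 2215 and 95.6 and 95.8 TPM alone.

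Setting the partners of Oli-neu against each other gave no member past the threshold either, with 0.0% of all genes called. The fold change was negative for 24 of the 31, against 68.5% of all genes. At an unadjusted p under 0.05, 3 members were lower with D341 than with MB1 and 0 higher, against 4.34% and 0.79% of all genes. Both libraries with D341 lay below both libraries with MB1 for 12 of 31 members and above for 2 (Gapdh and Egln1), against 28.8% and 6.6% of all genes. The medians were -0.15 for the enzymes and -0.14 for the other targets, against -0.09 for all genes, and by library number the enzymes gave -0.27 and 0.00 and the other targets -0.28 and 0.03. Both medians depended on single libraries: they came to -0.02 and 0.0044 when replicate 1 of Oli-neu with MB1 was left out, and to -0.25 and -0.29 when its replicate 2 was. With median-ratio scaling 0 members and 236 genes in each direction were at an unadjusted p under 0.05, against 97 genes higher and 533 lower as deposited. With the replicate block 5 members were lower, Ca9 and Pfkl added, against 7.48% of all genes. Hk2 had 51.1 and 44.4 TPM with D341 and 67.4 and 57.5 TPM with MB1, a log2 fold change of -0.38 (SE 0.14, adjusted p = 0.839). Aldoc had 732 and 744 TPM with D341 and 997 and 875 TPM with MB1, a log2 fold change of -0.34 (SE 0.13, adjusted p = 0.839). Egln3 had 14.9 and 13.7 TPM with D341 and 21.1 and 16.6 TPM with MB1, a log2 fold change of -0.37 (SE 0.14, adjusted p = 0.839). All 3 were lower in both libraries with D341. For the acid enzyme, Ca9 had 77.5 and 68.5 TPM with D341 and 105 and 80.6 TPM with MB1, a log2 fold change of -0.33 (SE 0.18, adjusted p = 0.839). The log2 fold changes of Pfkl and Pdk1 were -0.29 (SE 0.12, adjusted p = 0.839) and -0.23 (SE 0.13, adjusted p = 0.839).

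**Figure D4:**
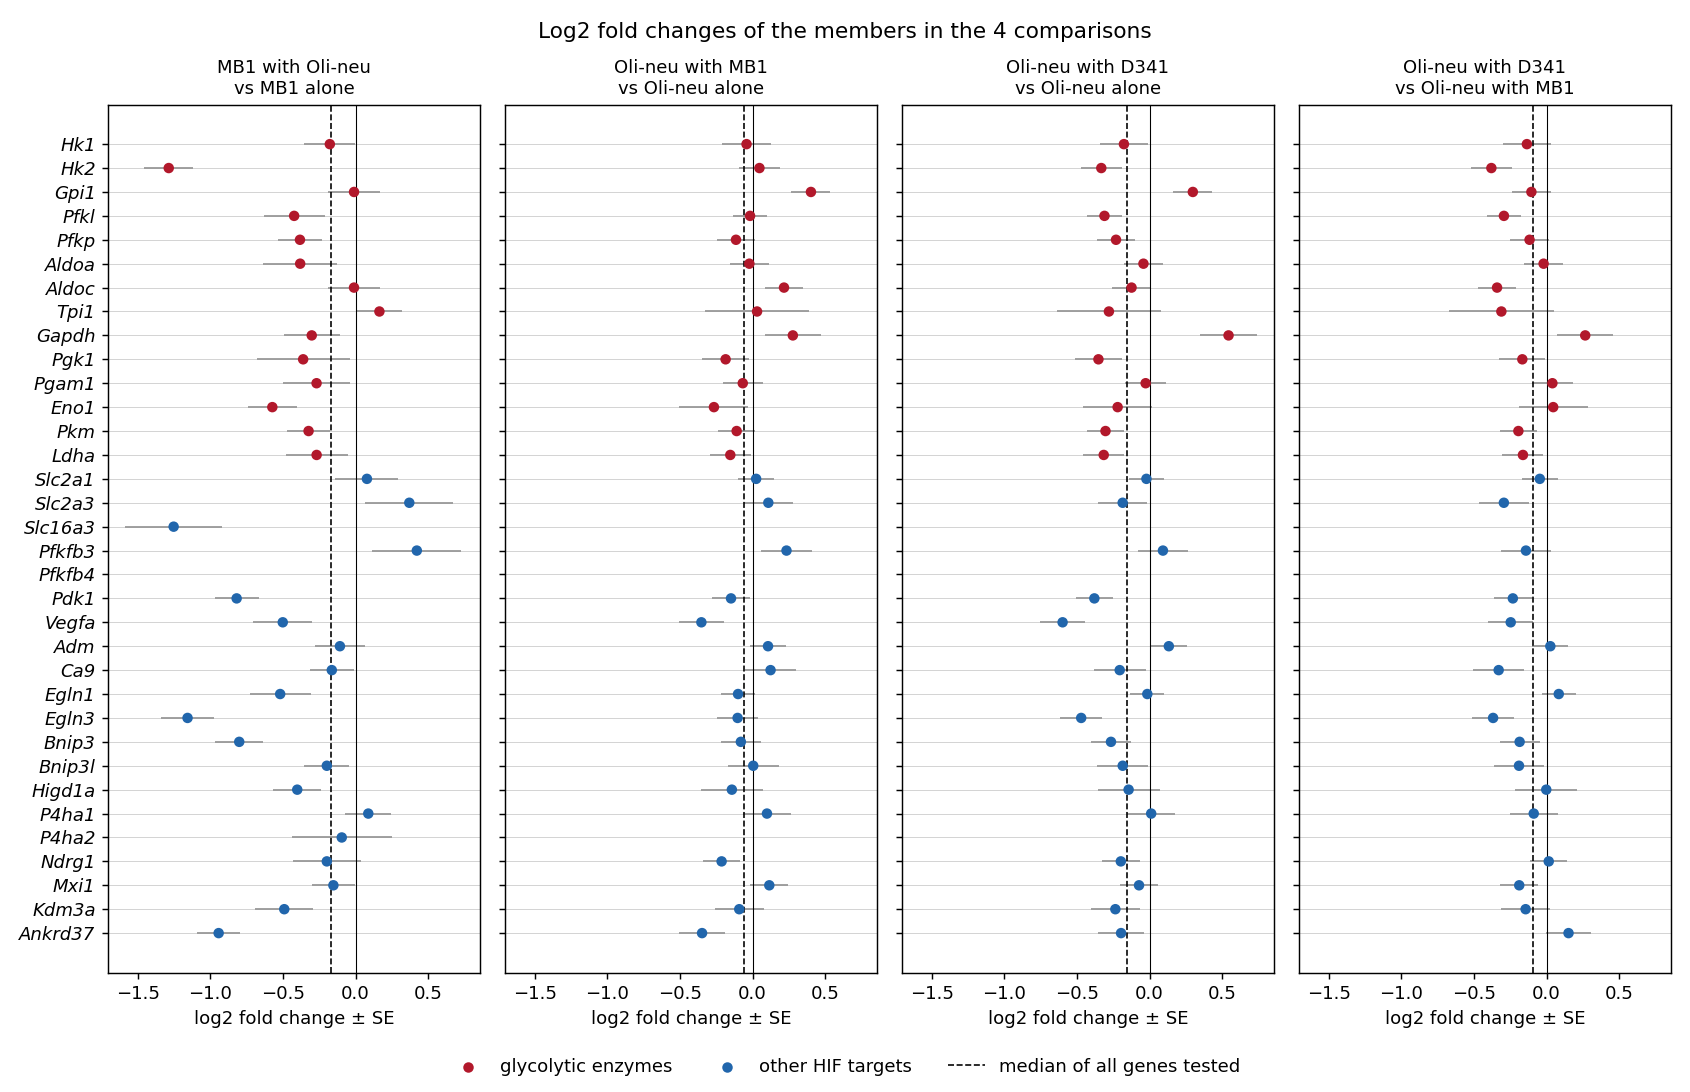
Log2 fold change with its standard error (SE) of each member in the 4 comparisons, with enzymes in red, other HIF targets in blue, a solid line at 0 and a dashed line at the median of all genes tested. In MB1 with Oli-neu (left panel) Hk2, Slc16a3, Egln3, Ankrd37, Pdk1 and Bnip3 lie furthest below the dashed line at -0.17, and the Oli-neu panels span less, from -0.60 to 0.54.

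Several members share sequence with processed copies, genes that arose from a reverse-transcribed messenger, and reads can be split between them. A copy was counted where its best match by blastn was a member's transcript, at 80% identity or more over 50% of the copy or more. Gapdh had 327 such copies, which held 38.2% to 45.2% of the TPM of Gapdh and its copies together in MB1 libraries and 47.1% to 60.2% in Oli-neu libraries. The copies listed differed by line. Gm13394 (chromosome 2) had 0.672 to 15.6 TPM in MB1 and 6241 to 7168 TPM in Oli-neu, while Gm10359 (chromosome 5) had 2344 to 2979 TPM in MB1 and was listed at 0 in all Oli-neu libraries. Over the 999 coding bases of Gapdh, Gm13394 was identical at 998 and Gm10359 at all 999. The stretch of 60 bases that holds the difference of Gm13394 is printed because it is the only coding base at which a read can tell the gene from the copy. It runs from coding base 316 to 375 of Gapdh, positions are counted from 1 at the first base printed, and the capital marks A31C, with the base of Gapdh first.
Gapdh: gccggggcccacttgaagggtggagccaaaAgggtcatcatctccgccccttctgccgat
Gm13394: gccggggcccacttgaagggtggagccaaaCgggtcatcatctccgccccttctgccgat
The level of Gapdh, its order between the lines and its fold changes are therefore uncertain, since reads of the gene and its copies may be split. With the TPM of copies added to their parents, Gapdh with its copies summed to 7534 to 11381 TPM in MB1 libraries and 12962 to 23444 TPM in Oli-neu libraries. The Gapdh transcript spans 1272 bases, Gm13394 1000 and Gm10359 1002. Equal reads give a shorter copy more TPM, so all sums with copies in this report are not sums of reads.

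Eno1 had 11 copies, which held 0.06% to 0.46% of the summed TPM in MB1 libraries and 45.4% to 63.6% in Oli-neu libraries. Most of it in Oli-neu was assigned to Eno1b, an annotated protein-coding copy, at 699.6 to 921 TPM against 0.398 to 13.6 TPM in MB1, and to Gm4735 on chromosome 2, at 214 to 585 TPM against 0.995 to 1.49 TPM in MB1. Gm4735 was identical to Eno1 at 1297 of 1302 coding bases. It spans 1302 bases and the Eno1 transcript 2027, so equal reads give Gm4735 more TPM. With copies summed, Eno1 had 2493 to 3995 TPM in MB1 and 1998 to 2762 TPM in Oli-neu, so that the lines overlapped where Eno1 alone did not. Within coding bases 696 to 755 the capital marks T31C.
Eno1: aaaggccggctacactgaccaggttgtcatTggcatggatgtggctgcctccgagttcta
Gm4735: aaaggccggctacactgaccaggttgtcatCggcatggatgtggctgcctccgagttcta
The mitochondrial Higd1a had 2 copies with 68.5% to 73.5% of the summed TPM in MB1 and 69.3% to 77.4% in Oli-neu, nearly all of it in Gm9790 (chromosome 3). Gm9790 spans 288 bases and the Higd1a transcript 2232, and since TPM is per length, equal reads give the shorter one more TPM. The 2 genes were identical at 283 of 285 coding bases, and G31T lies in coding bases 21 to 80.
Higd1a: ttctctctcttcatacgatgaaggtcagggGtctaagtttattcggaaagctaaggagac
Gm9790: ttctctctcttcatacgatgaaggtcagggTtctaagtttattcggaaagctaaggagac
Copies held up to 33.3% for Pgk1, up to 21.4% for Tpi1, up to 19.7% for Pgam1 and up to 13.6% for Ankrd37 in single libraries. The copy of Ankrd37 was at 0 in MB1 cells. No copies were found for Hk2, Egln3, Pdk1, Slc16a3, Vegfa or Ca9, and those of Bnip3 held at most 0.33%.

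**Figure D5:**
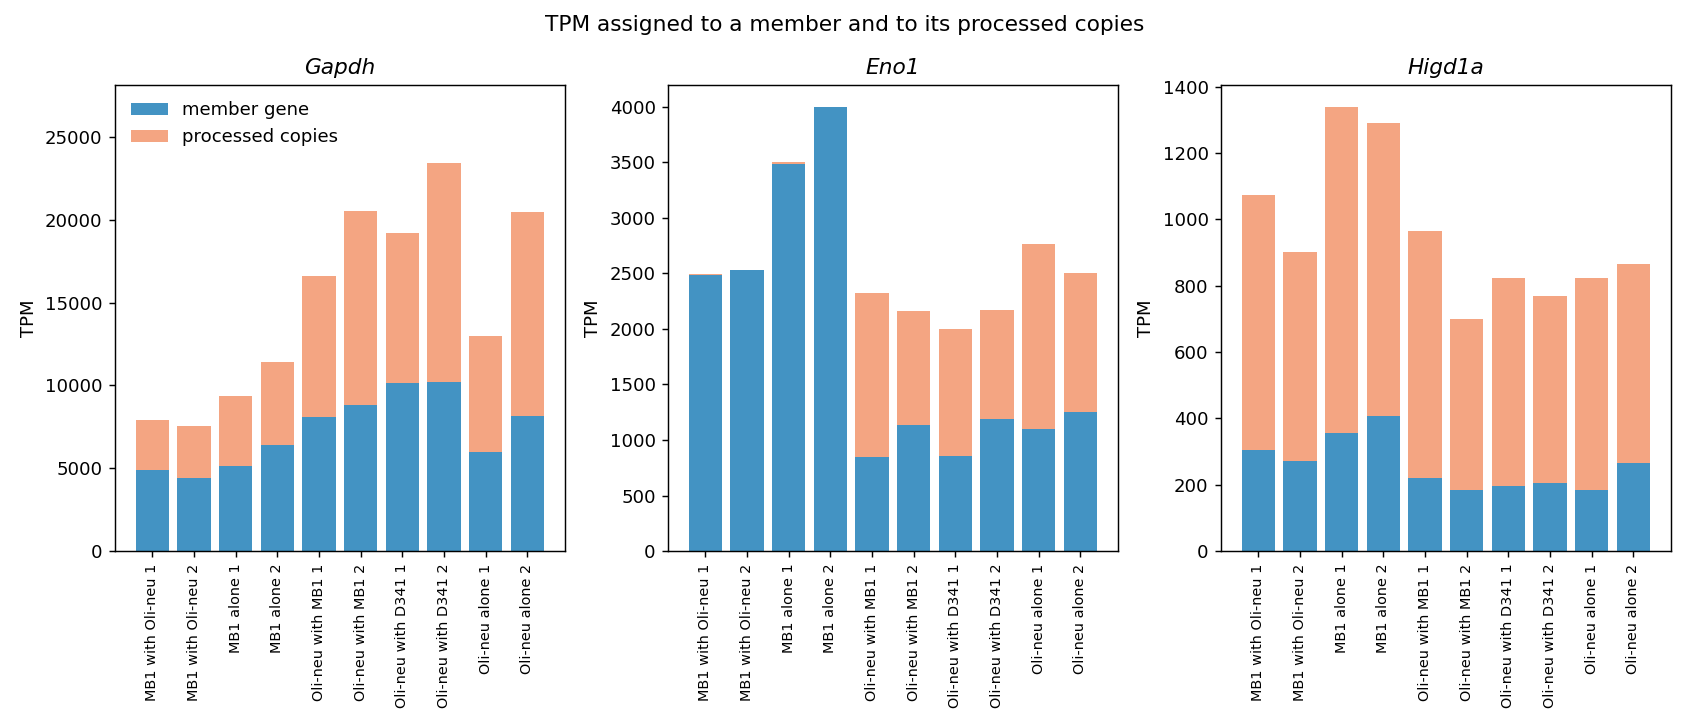
TPM assigned to Gapdh, Eno1 and Higd1a (blue) and to their processed copies (orange, stacked) in each of the 10 mouse libraries. The copies of Eno1 are near 0 in MB1 libraries and take 45.4% to 63.6% of the bar in Oli-neu libraries, and the copies of Higd1a take over 68% of the bar in all libraries.

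Neighbouring genes were taken from lists of the same pathways. In MB1 with Oli-neu, 24 of 30 further hypoxia genes were tested, with a median log2 fold change of -0.53 and 6 lower and 0 higher at an unadjusted p under 0.05. Over all genes the median was -0.17, with 12.6% lower and 3.02% higher. With median-ratio scaling 0 of the 24 were lower and 2 higher (Bhlhe40 and Vldlr, named after their values were seen), against 4.67% and 6.76% of all genes. The collagen cross-linking genes Plod2 and Loxl2 had 60.04 ± 1.77 and 10.2 ± 0.298 TPM with Oli-neu and 88.7 ± 0.08696 and 15.5 ± 0.439 TPM alone (SD, n = 2 each, adjusted p = 0.282 in limma for both). The other 4 of the 6 were Gys1, Ak4, Stc2 and Kdm4b, named after their values were seen. Of 8 other glycolytic isozymes tested, 1 was higher and 2 lower (Adpgk and Pgm1, the second named after its values were seen) at an unadjusted p under 0.05. The neuronal enolase Eno2 had 32.5 ± 6.87 TPM with Oli-neu and 17.3 ± 3.82 TPM alone, opposite to Eno1, and the ADP-dependent glucokinase Adpgk had 6.25 ± 0.4204 TPM with Oli-neu and 9.68 ± 0.618 TPM alone. The 10 genes of the oxygen sensing machinery had a median of -0.23 and 0 at an unadjusted p under 0.05. Arnt2, a partner of HIF, had 38.9 ± 29.5 TPM with Oli-neu and 80.9 ± 27.8 TPM alone, and Vhl, which tags HIF for destruction, had 84.2 ± 6.75 TPM with Oli-neu and 102 ± 1.11 TPM alone. The 7 genes of the pentose phosphate pathway, the side branch that makes NADPH, had a median of -0.15, with 1 lower at an unadjusted p under 0.05. That gene was Pgd, with 21.4 ± 1.52 TPM with Oli-neu and 36.1 ± 2.54 TPM alone, and Tkt had 295 ± 14.6 TPM with Oli-neu and 336 ± 3.48 TPM alone. The 15 genes of pyruvate fate had a median of 0.05 and the 16 citrate cycle genes of 0.06. Of these, 1 (Pdk4) was higher and 0 lower at an unadjusted p under 0.05. With median-ratio scaling 5 genes of pyruvate fate, 2 of the citrate cycle and 3 of the other isozymes were higher. In these 3 lists 0 were lower, and over all genes 6.76% were higher and 4.67% lower. The pyruvate dehydrogenase kinases Pdk4 and Pdk2, paralogues of Pdk1, had 3.22 ± 1.16 and 34.8 ± 5.63 TPM with Oli-neu and 1.400 ± 0.373 and 25.3 ± 2.59 TPM alone, higher in both libraries with Oli-neu. In the citrate cycle Idh3b had 194 ± 16.8 TPM with Oli-neu and 140.2 ± 43.2 TPM alone. No gene of these lists passed the adjusted threshold in limma.

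In Oli-neu with MB1, 25 further hypoxia genes were tested, with a median of -0.10 and 2 lower and 0 higher at an unadjusted p under 0.05, against a median of -0.06 and 4.65% lower and 1.43% higher over all genes. They were Tfrc, the transferrin receptor gene, with 22.7 ± 0.684 TPM with MB1 and 30.4 ± 0.606 TPM alone, and Wsb1, with 217 ± 11.3 TPM with MB1 and 285 ± 43.2 TPM alone. All 7 genes of the pentose phosphate pathway had negative fold changes, as did 62.6% of all genes, with a median of -0.24. Taldo1 had 41.2 ± 3.46 TPM with MB1 and 62.7 ± 9.25 TPM alone, the 1 gene of the pathway at an unadjusted p under 0.05, and Pgls had 65.7 ± 5.73 TPM with MB1 and 78.9 ± 4.85 TPM alone. Of 16 citrate cycle genes 1 was lower at that p, Suclg1 with 44.00 ± 0.497 TPM with MB1 and 61.4 ± 9.998 TPM alone, and Sdhb had 94.1 ± 2.11 TPM with MB1 and 114 ± 9.69 TPM alone. The other isozymes, the oxygen sensing machinery and the genes of pyruvate fate held none at that p. Their genes with the smallest p were Eno3, with 36.4 ± 7.297 TPM with MB1 and 47.1 ± 5.89 TPM alone, and Adpgk, with 6.06 ± 0.0647 TPM with MB1 and 7.02 ± 0.0577 TPM alone. In oxygen sensing they were Arnt, with 10.9 ± 1.24 TPM with MB1 and 14.3 ± 2.75 TPM alone, and Egln2, with 11.8 ± 0.8903 TPM with MB1 and 13.8 ± 0.771 TPM alone. The lactate carrier Slc16a1, the paralogue of Slc16a3, had 6.93 ± 0.799 TPM with MB1 and 8.46 ± 0.229 TPM alone, and Pdp1 had 3.13 ± 0.134 TPM with MB1 and 2.63 ± 0.113 TPM alone.

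In Oli-neu with D341, 3 of 25 further hypoxia genes were lower and 0 higher at an unadjusted p under 0.05, with a median of -0.19. The shares over all genes were 12.1% lower and 1.61% higher, with a median of -0.16, so the count was near the background. With the replicate block 6 of the 25 were lower, against 18.0% of all genes, and with median-ratio scaling 2 were, against 3.63%. Tfrc had 21.5 ± 1.09 TPM with D341 and 30.4 ± 0.606 TPM alone, and Wsb1 had 173 ± 0.524 TPM with D341 and 285 ± 43.2 TPM alone. The other was Tmem45a, named after its values were seen. Of the 9 oxygen sensing genes tested 2 were lower. Hif1an, the asparagine hydroxylase that silences HIF, had 2.61 ± 0.185 TPM with D341 and 4.002 ± 0.301 TPM alone, and Arnt, the partner of HIF, had 9.94 ± 0.542 TPM with D341 and 14.3 ± 2.75 TPM alone. All 7 pentose phosphate genes again had negative fold changes, as did 75.8% of all genes, with a median of -0.21. At an unadjusted p under 0.05 there were 3 of them, and 0 with median-ratio scaling. Taldo1 had 42.4 ± 2.22 TPM with D341 and 62.7 ± 9.25 TPM alone, Rpe had 8.03 ± 0.653 TPM with D341 and 11.2 ± 0.843 TPM alone, and Pgd was the other, named after its values were seen. In the citrate cycle Suclg1 had 43.1 ± 0.662 TPM with D341 and 61.4 ± 9.998 TPM alone, and Sucla2 had 14.9 ± 0.599 TPM with D341 and 19.2 ± 1.96 TPM alone. These were the 2 lower genes of 16. The count became 6 with the replicate block and 0 with median-ratio scaling, against 18.0% and 3.63% of all genes. The phosphoglucomutase Pgm1 had 65.3 ± 0.545 TPM with D341 and 87.8 ± 6.78 TPM alone, and Adpgk had 5.67 ± 0.434 TPM with D341 and 7.02 ± 0.0577 TPM alone. These were the 2 lower isozymes of 9 tested, and 1 was higher (Pgm2, named after its values were seen). Of the pyruvate dehydrogenase subunits, Pdhx had 3.603 ± 0.262 TPM with D341 and 4.78 ± 0.514 TPM alone, and Pdha1 had 33.5 ± 1.18 TPM with D341 and 40.9 ± 0.886 TPM alone, of which only Pdhx was at an unadjusted p under 0.05 among 14 genes of pyruvate fate.

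Between Oli-neu with D341 and Oli-neu with MB1 none of the neighbouring genes had an unadjusted p under 0.05 in limma. With the replicate block 3 of 9 oxygen sensing genes (Hif1an, Arnt2 and Ep300) and 1 of 9 isozymes (Pgm1) did. All of these were lower, as were 7.48% of all genes. With median-ratio scaling 1 isozyme (Pgm2) did, higher, as were 1.92% of all genes. Ep300 was named after its values were seen. The smallest p-values belonged to Wsb1 and Narf among the hypoxia genes, with 173 ± 0.524 and 8.44 ± 1.399 TPM with D341 and 217 ± 11.3 and 11.1 ± 0.7898 TPM with MB1. In oxygen sensing they were Hif1an and Arnt2, with 2.61 ± 0.185 and 2.23 ± 0.0292 TPM with D341 and 3.38 ± 0.0136 and 6.07 ± 4.54 TPM with MB1. Among the isozymes Pgm2 was higher in both libraries and Pgm1 lower in both, with 26.3 ± 5.34 and 65.3 ± 0.545 TPM with D341 and 19.9 ± 0.614 and 80.7 ± 10.9 TPM with MB1. In the pentose phosphate pathway Rpe and G6pdx had 8.03 ± 0.653 and 14.4 ± 1.297 TPM with D341 and 9.63 ± 0.823 and 16.9 ± 2.96 TPM with MB1. Sdha and Sucla2 of the citrate cycle had 229 ± 68.4 and 14.9 ± 0.599 TPM with D341 and 293 ± 12.4 and 17.1 ± 1.04 TPM with MB1. Pdhx and Pdha1 had 3.603 ± 0.262 and 33.5 ± 1.18 TPM with D341 and 4.43 ± 0.262 and 39.2 ± 4.03 TPM with MB1. Values with ± in these paragraphs are means and SD of 2 libraries. The lowest adjusted p of any listed neighbour in the Oli-neu comparisons was 0.32 in limma.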

How the data were processed

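Poly(A) RNA of 10 mouse libraries was sequenced over 75 cycles with a directional kit. The deposited values are TPM, made by the authors with 1 table for each line. Salmon 0.14.1, FastQC 0.11.8, MultiQC 1.7, DESeq2 1.22.2 and the builds GRCm38 and GRCh38 are named, per the submitters' processing notes. The tables hold no counts, so no count test was run. Each column summed to 1000000. Of the 35288 identifiers, 35028 matched GENCODE M21 (GRCm38), which gave symbols and positions.

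A gene was tested where 2 or more libraries of its table reached 1 TPM. limma 3.58.1 (R 4.3.3) was fitted to log2(TPM + 1) values, once to the 6 Oli-neu libraries and once to the 4 MB1 libraries, with a mean-variance trend in empirical Bayes. Tests were two-sided at an adjusted p of 0.05 (Benjamini-Hochberg). SD is given for TPM and SE for log2 fold changes. The procedure was tested on simulated data. Copies were found with blastn 2.17.0 in GENCODE M21 transcripts.

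All 34 members are named with their levels, and fold changes are given for the 6 with the smallest p in each comparison. From each neighbouring list the 2 genes with the smallest p in each comparison are named, except for a result that is not reported here. The members and lists were chosen with earlier results of these data known. Among Oli-neu libraries, those with the same number deviated together from their group means (correlations of 0.59 to 0.62 for the 3 pairs of groups). The numbers were used to pair libraries only in the setting with a replicate block. The SE and adjusted p given with each fold change come from fits without that block. For Vegfa in Oli-neu with D341 against Oli-neu alone, the adjusted p in limma was 0.32 without the block and 0.179 with it. Other settings tried were a pseudocount of 0.1 or 5 TPM, testing all genes or those at 5 TPM, columns scaled by median ratios, TPM rescaled without mitochondrially encoded genes or over protein-coding genes alone, copies summed to their parent, limma with no trend or with robust fitting, a replicate block, fits of 4 Oli-neu libraries at a time and each library left out in turn. The crossed pairing in MB1 was chosen after seeing the data.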

Additional observations from a re-analysis of the deposited data

Results flagged for a closer look

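Gapdh lay in opposite directions in Oli-neu with D341 and in MB1 with Oli-neu, with no overlap in either comparison. In Oli-neu with MB1 it had 8104 and 8823 TPM, which overlapped Oli-neu alone. It had 10146 and 10199 TPM in Oli-neu with D341 and 5971 and 8148 TPM in Oli-neu alone, while it had 4902 and 4420.2 TPM in MB1 with Oli-neu and 5137 and 6409 TPM in MB1 alone. The log2 fold changes differed by 0.85. The difference itself was not tested, since the tables were scaled apart, and neither fold change passed the adjusted threshold in limma. Processed copies held 38.2% to 60.2% of the TPM of Gapdh and its copies over these and the other mouse libraries. With copies summed, the values were 19192 and 23444 TPM in Oli-neu with D341 and 12962 and 20467 TPM in Oli-neu alone, which overlapped. In MB1 they were 7931 and 7534 TPM with Oli-neu and 9373 and 11381 TPM alone, without overlap. The lack of overlap with D341 thus depended on how reads were assigned. Between libraries of the same number the sum was still higher with D341, at 19192 against 12962 TPM and 23444 against 20467 TPM. The part of the copies was not tested.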

How the results depend on the processing

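The count of members past the threshold was 0 in all 4 comparisons under every alternative run. Of the fold changes given for single members, all 384 values under alternatives kept their direction and stayed on the same side of the threshold. Over all genes, the count of calls reached 112 in MB1 without MB1 alone replicate 1 and at most 6 in the Oli-neu comparisons. Median-ratio scaling moved the medians for Oli-neu with D341 against Oli-neu alone to -0.040 for the enzymes and -0.0047 for the other HIF targets, and the median of the other HIF targets in MB1 with Oli-neu to -0.012. In MB1 that median was -0.17 over protein-coding genes alone. Leaving out 1 library gave -0.49 to -0.23 for it, with -0.49 without MB1 alone replicate 1, and -0.22 to -0.12 for the other HIF targets in Oli-neu with D341. The causes were not tested. With the replicate block, 0 members passed the adjusted threshold in any comparison. At an unadjusted p under 0.05 the block gave 6 lower members in MB1, without Eno1, in place of 7. The share of all genes lower was then 8.29%, in place of 12.6%. In the Oli-neu comparisons the block gave more members, as given there. The correlation of same-numbered MB1 libraries was -0.12, and with the crossed pairing 0 members and 0 genes passed. The depth is unknown, so its part in the absence of calls was not tested.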
